A study of Mus musculus with 61 samples.

Results

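CD4+ T cells carrying their own STAT5A and STAT5B were transduced with a retroviral vector encoding either native STAT5B or STAT5B N642H, and the transcriptomes of both were compared. The members are the 6 libraries titled for these vectors in WT CD4 cells, 3 per vector, of 61 libraries in the series and of 15 from WT CD4+ T cells. The cells came from C57BL/6 mice aged 2 months. Naive CD4+ T cells (CD44 low, CD25-) were sorted from pooled lymph nodes and spleens, activated through the T cell receptor and CD28, transduced, cultured with IL-2 and sorted again as live CD4+ GFP+ cells. Every vector carries GFP, so all 6 libraries come from transduced cells, and both groups hold endogenous STAT5 beside the vector product. The genotype entry of the labels names floxed Stat5a/b in all 30 CD4+ libraries, those titled WT included, so the WT background was taken from the titles and from the study's methods. The study calls replicates biological and independent where it shows T cell transcript levels, in a legend headed for the null cells, and whether the WT libraries of one vector came from separate mice is not given in the sources used here. The p-values of the main comparison measure the spread among the 15 WT libraries that is left after vector and replicate number are fitted.

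STAT5B is a transcription factor that waits in the cytoplasm until a Janus kinase at a cytokine receptor phosphorylates it on a tyrosine. Phosphorylated molecules then pair through their SH2 domains, move to the nucleus and bind DNA at gamma-interferon activated sequences (GAS motifs). In T cells, IL-2 and related cytokines signal through STAT5, which drives growth, survival and cytokine genes and is restrained by the inhibitors it induces, such as CISH and SOCS proteins. N642H, a change in the SH2 domain found in human T cell leukemias and lymphomas, is known as an activating mutation and served as the positive control of the study.

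The codons altered in the constructs are shown to place the mutation, in capitals within the reference coding sequence of the mouse transcript Stat5b-202 (GENCODE M21, GRCm38), the transcript that the vectors encode. The codon changed in N642H (AAT, asparagine) lies at chr11:100787360-100787362 on the minus strand, in exon 16 of 19. The codon changed in the other vectors Y665F and Y665H (TAC, tyrosine) lies in the same exon at chr11:100787291-100787293. The base changes made in the vectors were not given in the sources used here.
Stat5b codon of N642H: agaatgttttggAATctgatgcctttt
Stat5b codon of Y665F and Y665H: ggggacctgaatTACctcatatatgtg

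The first comparison asked whether both vectors gave a like dose. Stat5b was at 402, 501 and 546 CPM (normalized read count, scaled to library size) in the STAT5B libraries and at 410, 437 and 434 CPM in the N642H libraries. The N642H values lay within the range of the STAT5B values, and the mean with N642H (427 ± 14.8 CPM, SD, n = 3) was 88.4% of that with STAT5B (483 ± 73.6 CPM, SD, n = 3). The log2 difference was -0.17 with a standard error (SE) of 0.10. The unadjusted p was 0.114 and the adjusted p 0.949 (edgeR quasi-likelihood test, Benjamini-Hochberg adjustment over all genes). The empty vector gave 196 ± 9.23 CPM (SD, n = 3), which is the level of the endogenous gene. Counts per gene do not separate vector transcripts from endogenous ones, so the 88.4% holds for their sum and not for the vector's part. Stat5a, the paralog that no vector encodes, was at 155 ± 15.9 CPM with STAT5B and at 149 ± 17.4 CPM with N642H (SD, n = 3 each).

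**Figure D1:**
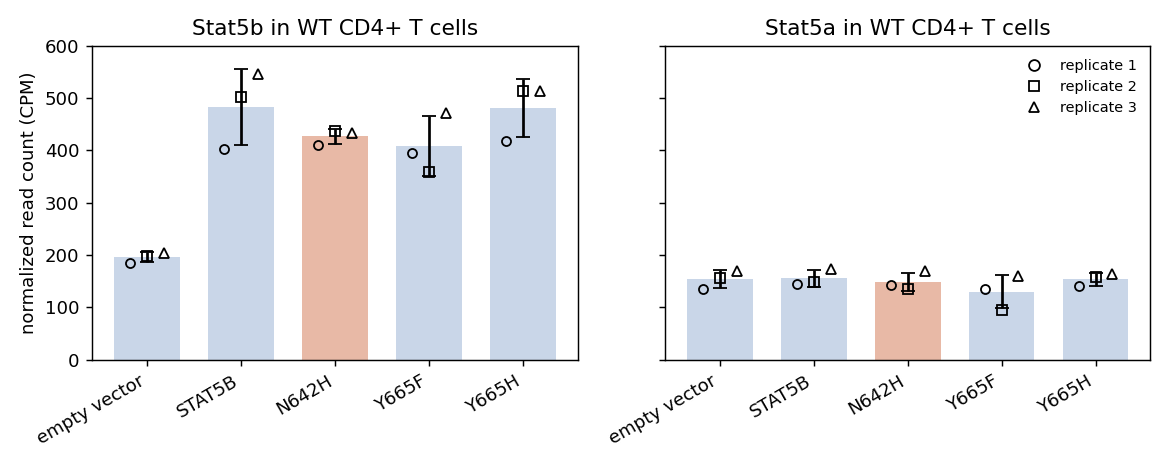
Normalized read count (CPM, linear axis) of Stat5b and Stat5a in WT CD4+ T cells by vector, as the mean of 3 libraries (bar), its SD (error bar) and each library (symbols by replicate number). All 6 STAT5B and N642H libraries lie between 402 and 546 CPM for Stat5b, above the empty vector, and the 5 vectors overlap for Stat5a.

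Depth ranged from 33761977 to 48821084 reads on genes in the STAT5B libraries and from 18825994 to 48951215 in the N642H libraries, so that 1 CPM stands for at least 18.7 reads. T cell genes marked every library, with a sum over 10 measured T cell markers of 3609 to 3722 CPM with STAT5B and 3003 to 3715 CPM with N642H. Cd4 was at 621 to 935 CPM over the 6 libraries. The lists of CD8, B, NK, gamma delta T, myeloid, dendritic, neutrophil, erythroid and mast cell genes each summed to at most 11.03 CPM in any library. No marker gene passed the test, and the globin genes Hba-a1, Hba-a2, Hbb-bs and Hbb-bt and the NK receptor genes Klra4 and Klra8 were at 0 in all 6. Libraries numbered 3 stood apart with every vector, on a first principal component that held 50.4% of the variance of the 15 WT libraries. The sources do not say what a replicate number stands for.

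A small set of genes was higher with N642H and no gene was lower by the same measure. With the replicate number as a block, 94 of 20509 genes (0.458%) were called higher with N642H than with STAT5B and 0 lower, where called means an adjusted p under 0.05 and a change of more than 2-fold. At an unadjusted p under 0.05, 774 genes were higher and 569 lower, and DESeq2 with the same block called 96 higher and 1 lower. Without a fold minimum, edgeR gave 164 genes higher (0.8%) and 24 lower (0.117%). These calls depended on the block. Without it, 1 gene was called (0.00488%, higher), the neuropilin gene Nrp2 (adjusted p = 0.0197), and 526 genes had an unadjusted p under 0.05. Of the 94 genes, all still had a positive log2 fold change without the block and 72 an unadjusted p under 0.05, while their median SE rose from 0.28 to 0.57. The kept sign is no further support, since these genes were chosen for a rise in the same libraries. Leaving out 1 library with the block kept gave 42, 60 and 165 called genes without N642H replicates 1, 2 and 3, and 57, 80 and 44 without STAT5B replicates 1, 2 and 3. Of the 94, 20 genes were called in each of 13 alternatives, namely the 6 fits without 1 library, RLE factors, library totals, DESeq2, filterByExpr, no filter, the 6 libraries alone, and a RUVr factor estimated from residuals in place of the block. Among them were Il9, Plaur, Plau, Nrp2, Ctgf, Oxtr, H19 and Myh11. The fit without the libraries numbered 3 was not part of this count.

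Libraries numbered 3 held the lowest value of the 94 genes in 81 cases with STAT5B and in 85 cases with N642H, against 31.4% and 29.8% of all tested genes. In 39 of the 94 genes every N642H library lay above every STAT5B library, as in 2.75% of all genes. In all 94 the N642H library lay above the STAT5B library of the same number in each of 3 pairs, which holds for 11.7% of all genes. The median fold over the 94 genes was 3.21 in the first pair, 2.99 in the second and 3.13 in the third. Since the calls rest on these same libraries, the counts describe them and are no further support.

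In 65 of the 94 genes the fold was between 2 and 4, in 29 at least 4 and in 6 of those at least 8. The mean over the 6 libraries was under 1 CPM in 6 genes, from 1 to 10 CPM in 68 and 10 CPM or more in 20. Of all 20509 tested genes, 11385 had a mean of at least 1 CPM, and the median level with STAT5B was 1.72 CPM over the 94 genes and 2.72 CPM over all tested genes. In bulk RNA a change in the share of cells that transcribe a gene and a change in the amount per cell cannot be told apart.

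**Figure D2:**
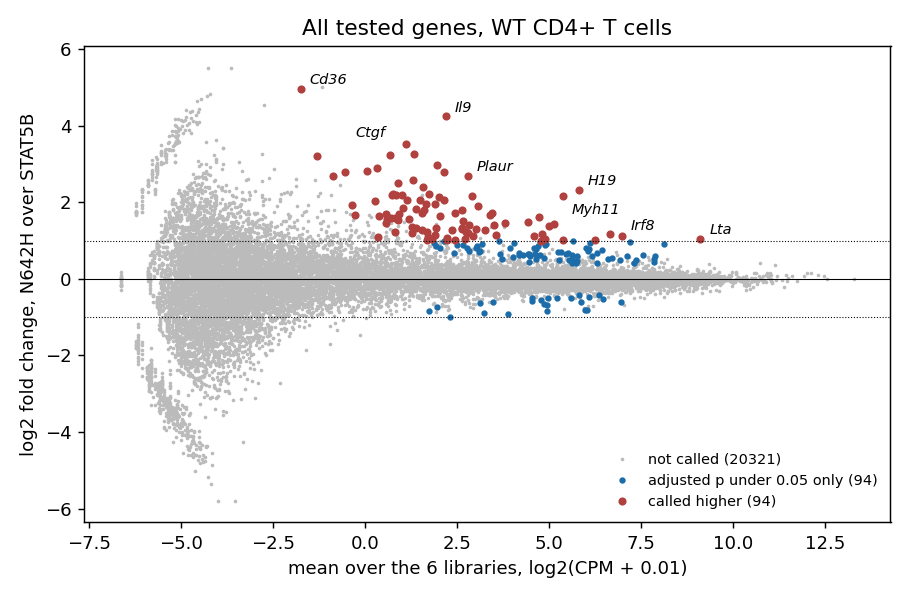
Log2 fold change of N642H over STAT5B (vertical) against the mean over the 6 libraries on a log2 scale (horizontal) for the 20509 tested genes. The 94 genes called higher (red) include Il9, Lta and Irf8, and no gene is called lower. The fans of points at the left edge are genes with few reads.

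Among the effector cytokines, Il9, which encodes a growth factor for mast cells and T cells (chr13:56479277-56482246, GRCm38), rose most. It was at 0.831, 0.543 and 0.0778 CPM with STAT5B and at 12.6, 7.98 and 5.19 CPM with N642H. Every N642H library lay above every STAT5B library, with a log2 fold change of 4.26 (SE 0.37, edgeR adjusted p = 1.59e-06). Il3, the gene of a growth factor for blood cell progenitors (chr11:54265303-54267277), was at 23.7, 25.1 and 4.48 CPM with STAT5B and at 111, 35.4 and 11.4 CPM with N642H. Its groups overlapped, each pair rose, and the log2 fold change was 1.44 (SE 0.23, adjusted p = 0.0021). Lta encodes lymphotoxin alpha, a TNF family cytokine that shapes lymphoid organs (chr17:35203165-35205351). It was at 423, 483 and 182 CPM with STAT5B and at 1036, 800 and 393 CPM with N642H, a log2 fold change of 1.04 (SE 0.11, adjusted p = 1.56e-05). Again only the third library of N642H fell into the STAT5B range. The chemokine gene Ccl3, whose product draws monocytes and T cells, was at 16.9, 16 and 21.2 CPM and at 34.5, 25.3 and 50.8 CPM with N642H. These groups did not overlap, and the log2 fold change of 1.00 (SE 0.16, adjusted p = 0.00213) was just past the minimum. Leaving out 1 library took 3 of these 4 genes under the 2-fold minimum while the adjusted p stayed under 0.05. Lta was at log2 fold changes of 0.96, 0.995 and 0.96 without STAT5B replicate 1, STAT5B replicate 3 and N642H replicate 1, and Il3 at 0.90 without N642H replicate 1. Ccl3 was at 0.97, 0.96 and 0.85 without STAT5B replicate 1, STAT5B replicate 3 and N642H replicate 3, and was called in 5 of 14 alternatives.

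Of 27 effector cytokine genes tested, 3 were called, Il9, Il3 and Lta, next to 0.458% of all tested genes. The gene lists were written with earlier results of these data known, so such counts are a description and no test. Lif passed the adjusted p at a log2 fold change of 0.52, and Csf1, the gene of a macrophage growth factor, passed it in the other direction at -0.66. The median over the list was 0.52, against -0.01 over all tested genes. The log2 fold changes of the list ran from -1.25 to 4.26, and only 16 of the 27 genes had a mean of at least 1 CPM. Ltb and Tgfb1, also on the list, had log2 fold changes of 0.08 and -0.05 (adjusted p = 1 for both).

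Of 28 helper lineage transcription factors 3 were called (Irf8, Batf3 and Tbx21), and of 19 AP-1 and NFAT factors 2 (Batf3 and Atf3). Batf3 is on both lists, and 0.458% of all tested genes were called. Irf8, which directs myeloid and B cell fates (chr8:120736358-120756694), was at 103, 88 and 39 CPM with STAT5B and at 308, 126 and 92.1 CPM with N642H. The rise (log2 fold change 1.13, SE 0.15, adjusted p = 0.000256) was present in each pair although the groups overlapped. Batf3, an AP-1 family factor needed by cross-presenting dendritic cells, had a log2 fold change of 1.37 (SE 0.26, adjusted p = 0.00897). Atf3, a stress-induced member of the same family, had one of 1.05 (SE 0.14, adjusted p = 0.000243). Tbx21 encodes T-bet, the master factor of Th1 cells, and stayed low, at 1.04, 1.45 and 0.72 CPM with STAT5B and 3.27, 1.69 and 2.37 CPM with N642H. Its call (adjusted p = 0.0294) was lost in 4 of the 6 fits that left out a library, those without replicate 1 or 3 of either vector (adjusted p from 0.141 to 0.238). The median log2 fold changes of the helper lineage and the AP-1 and NFAT lists were 0.05 and 0.05. Irf8 fell under the 2-fold minimum without N642H replicate 1 (0.94), and Atf3 without N642H replicate 1 (0.92) or STAT5B replicate 3 (0.91), all with an adjusted p under 0.05. Batf3 lost its call without STAT5B replicate 3 (adjusted p = 0.0917).

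The receptor gene Il18r1, which lets T cells respond to IL-18 (chr1:40465552-40500854), was at 50.8, 67.4 and 28 CPM with STAT5B and at 130, 136 and 42.1 CPM with N642H. It was the one gene called among 18 inflammatory cytokine receptors, next to 0.458% of all tested genes (log2 fold change 1.01, SE 0.14, adjusted p = 0.000277). It fell to 0.96 without STAT5B replicate 1 or 2 and to 0.80 without N642H replicate 1, under the 2-fold minimum with an adjusted p under 0.05. Il12rb1, a receptor chain for IL-12 and IL-23, did not overlap between the groups, at 54.4 to 69 CPM with STAT5B and 77 to 95 CPM with N642H, but missed the threshold (adjusted p = 0.0552).

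**Figure D3:**
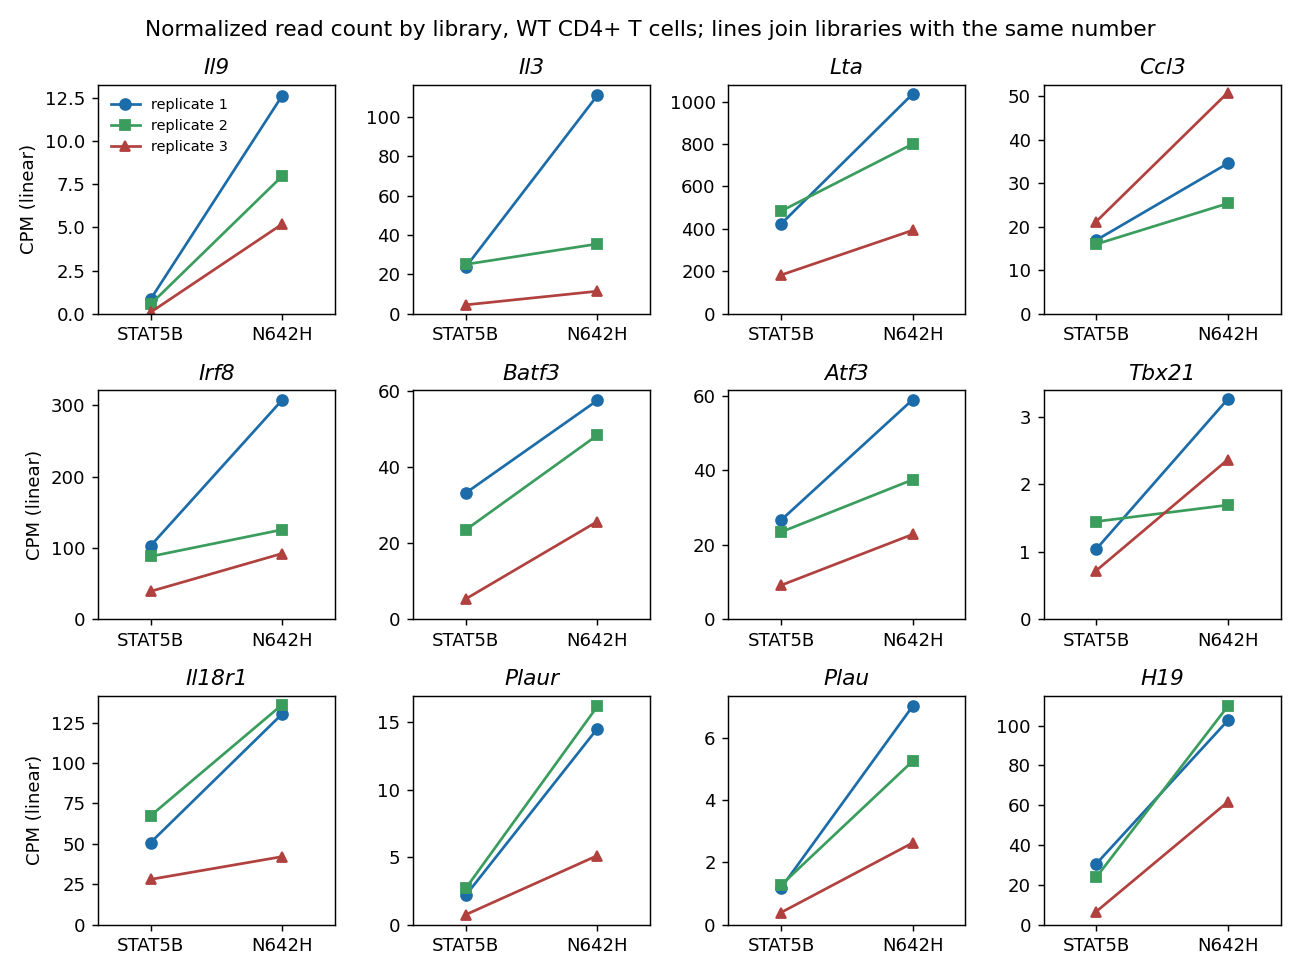
Normalized read count (CPM, linear axis from 0, one scale per panel) of 12 genes called higher with N642H, in each STAT5B and N642H library of WT CD4+ T cells, with lines joining libraries of the same replicate number. Every line rises, and replicate 3 starts and ends lowest in most panels, Ccl3 and Tbx21 being exceptions.

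Other named genes of the comparison lay outside the cytokine and transcription factor lists. Plaur and Plau encode the urokinase receptor and its ligand, a protease that starts fibrin breakdown. Plaur was at 2.17, 2.69 and 0.739 CPM with STAT5B and at 14.5, 16.2 and 5.11 CPM with N642H, with the lowest adjusted p of the comparison (3.74e-08) and a log2 fold change of 2.68 (SE 0.18). Plau was at 1.18, 1.27 and 0.389 CPM and rose to 7.02, 5.25 and 2.63 CPM, a log2 fold change of 2.41 (SE 0.26). In both genes all N642H libraries lay above all STAT5B libraries. Ctgf, the gene of a matrix-associated growth factor, went from 0.352 to 3.94 CPM in the mean, a log2 fold change of 3.52 (SE 0.41). Oxtr, the oxytocin receptor gene, went from 0.482 to 4.54 CPM, a log2 fold change of 3.27 (SE 0.37). Nrp2, a receptor for semaphorins and vascular growth factors, went from 0.893 to 6.87 CPM, a log2 fold change of 2.97 (SE 0.29), with its 3 N642H libraries at 7.07, 8.09 and 5.43 CPM.

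Several called genes belong to families, which were picked after the values were seen and carry no test. Over all tested genes 0.458% were called. Of 20 semaphorin genes tested, Sema3b, Sema6a, Sema6d and Sema7a were called, while the median log2 fold change of the family was 0.05. Of 9 sodium-hydrogen exchanger genes Slc9a2 and Slc9a4 were called, and of 9 copines Cpne2 and Cpne6. Nrp1, the other neuropilin, had a log2 fold change of 0.18. The imprinted neighbours H19, a noncoding RNA (chr7:142575529-142578143), and Igf2, a fetal growth factor gene (chr7:142650766-142666816), were both called. Of 14 alternatives, H19 and Slc9a2 were called in 13, and Sema3b, Sema6a and Cpne2 in 8. Sema6d, Slc9a4 and Igf2 were called in 6, Sema7a in 5 and Cpne6 in 3.

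H19 was at 30.5, 23.8 and 6.56 CPM with STAT5B and at 103, 110 and 61.7 CPM with N642H, a log2 fold change of 2.32 (SE 0.28, adjusted p = 6.97e-05). With the empty vector it was at 0.409 CPM in the mean. Igf2 remained low, at 0.0584 to 0.231 CPM with STAT5B and 0.861 to 1.61 CPM with N642H. Myh11, a smooth muscle myosin gene, was at 19.7, 24.1 and 3.76 CPM with STAT5B and at 86.1, 92.5 and 23.5 CPM with N642H (log2 fold change 2.16, SE 0.21). Here the third N642H library lay below the highest STAT5B library. Cd36, a fatty acid receptor gene, was at 0, 0.0302 and 0.0195 CPM with STAT5B and 0.857, 0.574 and 0.239 CPM with N642H, too few reads for a firm fold. C1s1 and C1s2, both called, are close paralogs whose reads the counting may split, so their separate values are uncertain.

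Socs2, Cish and Il2ra, known targets of IL-2 and STAT5, did not pass the test between N642H and native STAT5B. Socs2, a feedback inhibitor, was at 381, 398 and 245 CPM with STAT5B and at 421, 471 and 377 CPM with N642H, a log2 fold change of 0.34 (SE 0.10, adjusted p = 0.174). Cish, another feedback inhibitor, had one of 0.21 (SE 0.13, adjusted p = 0.953), and Il2ra, the alpha chain of the IL-2 receptor, one of 0.14 (SE 0.10, adjusted p = 1). A p that misses the threshold does not show that the levels were alike. With the empty vector the means of Socs2, Cish and Il2ra were 270, 384 and 1672 CPM. They were 341, 401 and 1871 CPM with STAT5B and 423, 457 and 2045 CPM with N642H. Of 16 feedback inhibitors only Socs3 passed the adjusted p, at a log2 fold change of 0.98 (SE 0.16, adjusted p = 0.00225), just under the minimum. Over all tested genes 0.917% passed it in either direction. Socs3 was at 38.8, 42.7 and 18 CPM with STAT5B and at 98.6, 71.7 and 31 CPM with N642H.

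Across 27 lists of T cell, signaling and metabolic genes, 9 of 476 genes tested (1.89%) were called, next to 0.458% of all genes. The 9 were Il9, Il3, Lta, Ccl3, Irf8, Batf3, Atf3, Tbx21 and Il18r1. The share of all genes counts lowly expressed genes as well. Of 20509 genes 11385 had a mean of at least 1 CPM, and 6 of the 94 called genes lay below it. The lists were written with earlier results of these data known, so the shares are a description and no test. No gene was called by edgeR among the JAK-STAT components, the common gamma-chain receptors, the regulatory T cell genes, the T cell receptor signaling genes, the interferon-stimulated genes, the BCL2 family or the cholesterol and amino acid transporter lists. The list medians there lay between -0.15 and 0.11. The amino acid transporter genes Slc3a2 and Slc7a5, which feed growing T cells, both had a log2 fold change of 0.16. The cyclin-dependent kinase inhibitor gene Cdkn1a passed the adjusted p at 0.96 (SE 0.16, adjusted p = 0.0024), the one such gene of 29 in the cell cycle list. The prolyl hydroxylase gene Egln3 passed it at 0.90 (SE 0.16, adjusted p = 0.00361) in the glycolysis and hypoxia list. Over all tested genes 0.917% passed it in either direction. Mki67 and Top2a, markers of dividing cells, had log2 fold changes of -0.13 and -0.15 (adjusted p of 1 and 0.969).

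**Figure D4:**
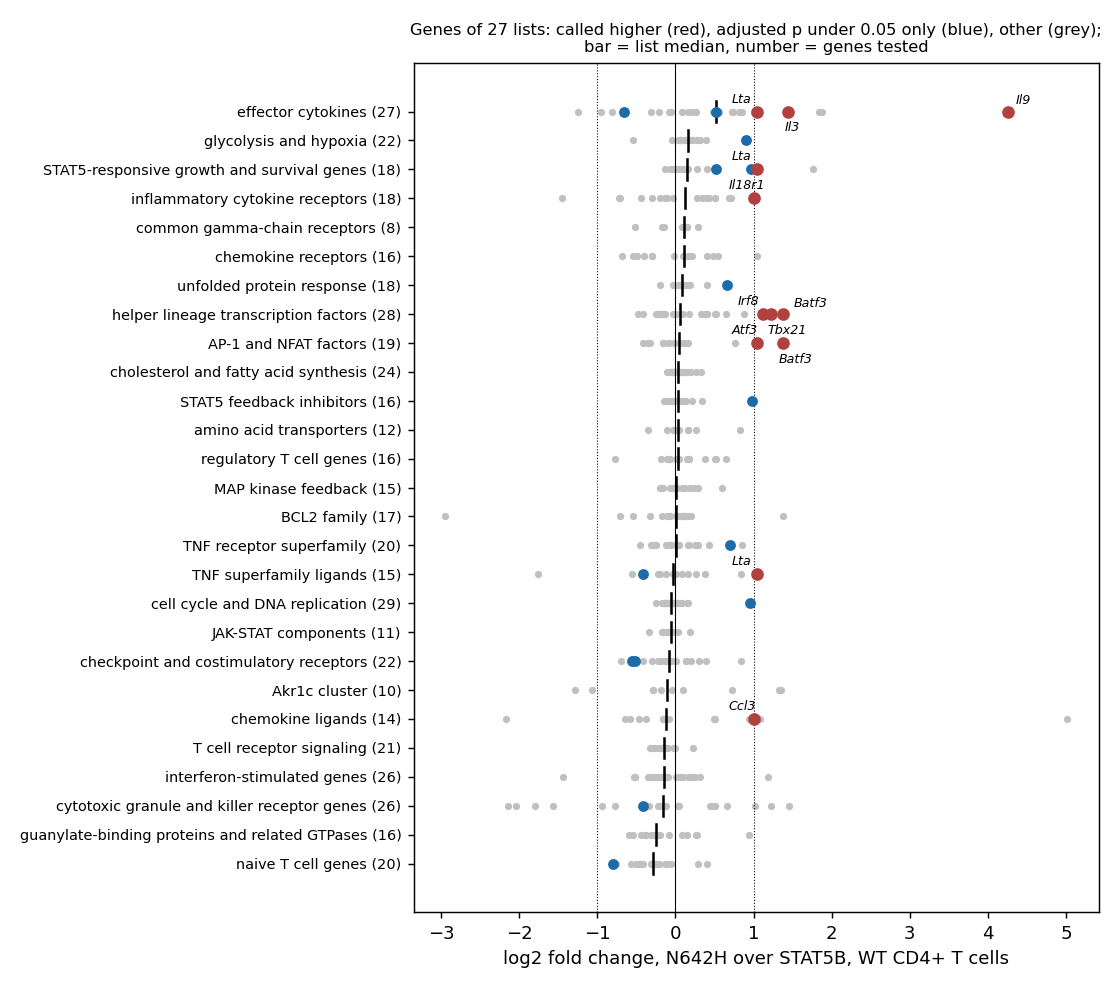
Log2 fold change of N642H over STAT5B (horizontal) for each tested gene of 27 lists (rows, ordered by median), with the list median as a black bar. The 9 called genes are named, the effector cytokines have the highest median (0.52) and the naive T cell genes the lowest (-0.29). Of the 27 effector cytokine genes, 16 had a mean of at least 1 CPM.

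Falls were smaller than rises. The 24 genes lower with N642H at an adjusted p under 0.05 had a median log2 fold change of -0.61, and in 10 of them the groups did not overlap, as in 3.34% of all genes. Dapl1, a gene of resting T cells, was at 89.6, 80.4 and 78 CPM with STAT5B and at 35.8, 47.6 and 59.1 CPM with N642H (log2 fold change -0.80, SE 0.16, edgeR adjusted p = 0.017). Ms4a6b, a membrane protein gene of T cells, was at 146, 136 and 165 CPM with STAT5B and at 83.6, 96.3 and 114 CPM with N642H (log2 fold change -0.61, adjusted p = 0.00713). In both genes every N642H library lay below every STAT5B library. Tnfsf10, which encodes the death ligand TRAIL, fell by 0.41 on the log2 scale (adjusted p = 0.0309). The interferon-inducible gene Ifi203 fell by 0.61 (adjusted p = 0.0241). Without the block Dapl1, Ms4a6b, Tnfsf10 and Ifi203 did not pass, the lowest edgeR adjusted p among them being 0.618 for Ms4a6b. The lymphocyte receptor genes Cd96 and Slamf6, chosen here after their values were seen, had log2 fold changes of -0.56 and -0.52. Of the 20 naive T cell genes, Dapl1 alone passed the adjusted p, next to 0.917% of all tested genes in either direction. Ccr7, Tcf7 and Igfbp4 of that list had log2 fold changes of -0.29, -0.21 and -0.50 (adjusted p from 0.465 to 0.885).

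Promoters of the called genes were searched for the core GAS motif TTCNNNGAA, which reads the same on both strands. RefSeq promoter windows of 300 bases (GRCm38.p6), from 250 bases before to 50 after a start site, were found for 64 of the 94 genes. The motif was present for 10 of the 64 (15.6%) and for 9.05% of all tested genes with a window. A gene can have several windows. Counted by window, the motif was in 10 of 97 (10.3%) and in 7.72% of the 18624 windows of all tested genes. These shares were not tested. The stretches shown are those of called immune genes with a match, with the motif in capitals and the window's start site to the right. For Il18r1 and Batf3 that start site lies inside the gene's GENCODE span (chr1:40465552-40500854 and chr1:191097847-191108945), and so do the matches. Lta holds 2 matches, at -148 and -12 bases from the start site (chr17:35205485-35205513 and chr17:35205349-35205377, minus strand). Irf8 holds 2, at -167 and -149 (chr8:120736177-120736205 and chr8:120736195-120736223, plus strand), and Il18r1 2, at -215 and -148 (chr1:40465777-40465805 and chr1:40465844-40465872, plus strand). Batf3 holds 1 at -235 (chr1:191098165-191098193, plus strand). A match describes the letters and is not evidence of binding.
Lta at -148: accatcactcTTCAGGGAAccaggcttcc
Lta at -12: ccgactccctTTCCCAGAAcgcagtagtc
Irf8 at -167: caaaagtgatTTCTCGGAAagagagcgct
Irf8 at -149: aagagagcgcTTCAGAGAAggcggatttg
Il18r1 at -215: tcggggttagTTCTGGGAActgtggagct
Il18r1 at -148: agtacaggtcTTCCCAGAActgaaagctt
Batf3 at -235: gccacgtgacTTCCACGAAgagcgggggc

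The same vectors were compared in cells without endogenous STAT5, which asked whether the response needs it. In Stat5a/b-null CD4+ T cells, in which a Cd4-Cre transgene had deleted the floxed locus, 63 of 20113 genes (0.313%) were called higher with N642H and 3 lower (0.0149%), 0.328% in all. These 6 libraries are separate from the WT ones. Of the 94 genes called in WT cells, 91 had a positive log2 fold change in null cells, against 48.2% of all genes tested in both, and 32 were called there (34.0%). The 3 that did not were Il18r1, Tbx21 and Dnaaf3, with null log2 fold changes of -0.21, -0.11 and -0.11. Tbx21 stood higher in null cells, at 6.63, 14.1 and 23.2 CPM with STAT5B against a mean of 1.07 CPM in WT cells. With N642H it was at 5.42, 13.5 and 23.5 CPM in null cells. The difference between backgrounds was 1.36 for Dnaaf3, a gene of dynein arm assembly, and 1.30 for Tbx21, with adjusted p of 0.191 and 0.202. The median over the 94 genes was 1.48 in null cells, and -0.01 over all genes. Conversely 61 of the 63 genes called higher in null cells were positive in WT cells and 32 of the 63 were called there (50.8%). The median log2 fold changes of the 63 were 1.91 in null and 1.11 in WT cells. Over all tested genes in WT cells 0.458% were called higher, and the median log2 fold change was -0.01. Across 11162 genes of at least 1 CPM, the log2 fold changes of both backgrounds had a Pearson r of 0.616, given as a description since genes are not independent replicates.

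The dose was less even in the null cells. Stat5b was at 369, 348 and 253 CPM with STAT5B and at 211, 260 and 183 CPM with N642H, a log2 difference of -0.59 (SE 0.23, adjusted p = 0.321). Il9 was at 0.136, 0.0439 and 0.0816 CPM with STAT5B and at 1.99, 4.49 and 2.44 CPM with N642H in these cells. Lta, at 113, 98.7 and 59.7 CPM with STAT5B and 357, 371 and 198 CPM with N642H, no longer overlapped between the groups (log2 fold change 1.76, SE 0.25, adjusted p = 0.000742). Both cytokine genes were thus higher with N642H in each background.

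Socs2 and Il2ra, which did not pass the test in WT cells, had log2 fold changes of 1.30 (SE 0.21, adjusted p = 0.00212) and 0.82 (SE 0.18, adjusted p = 0.0331) in null cells. The difference between the backgrounds, tested as an interaction, was -0.999 for Socs2 (SE 0.24, adjusted p = 0.396) and -0.71 for Il2ra (SE 0.22, adjusted p = 1), so that neither response was shown to differ.

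**Figure D5:**
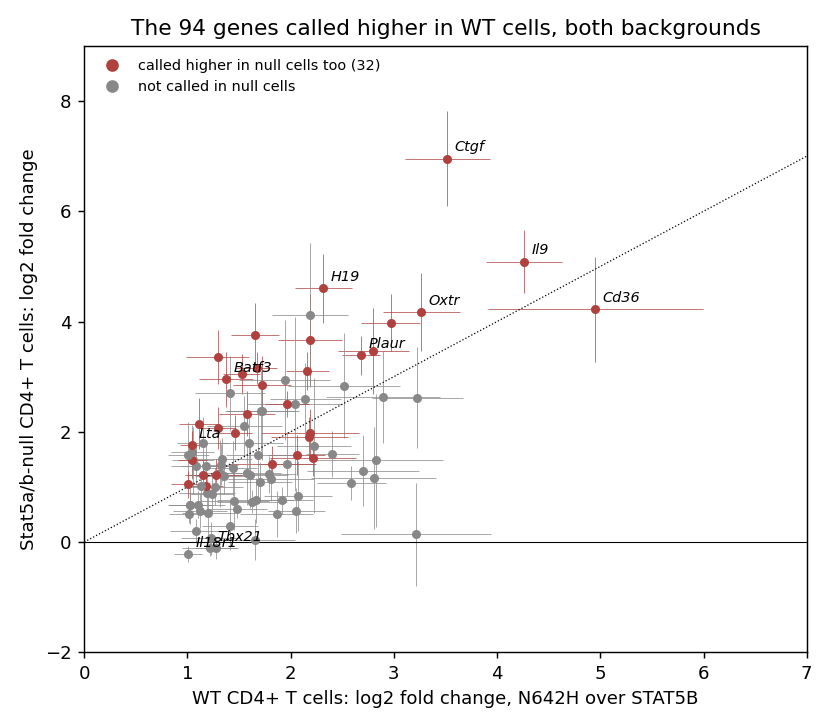
Log2 fold change of N642H over STAT5B in WT cells (horizontal) and in Stat5a/b-null cells (vertical) for the 94 genes called higher in WT cells, with SE bars and a dotted line of equal change. The 32 genes also called in null cells are red, and Il18r1, Tbx21 and Dnaaf3 (not named in the plot) lie just below 0 in null cells. The values of Cd36 and Ctgf rest on few reads in the STAT5B libraries.

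The interaction contrast over both backgrounds called 3 of 21975 genes (0.0137%), 1 with the larger change in WT cells (0.00455%) and 2 in null cells (0.0091%), with 622 at an unadjusted p under 0.05. Il18r1 rose in WT cells but was at 40.4, 45.2 and 23.4 CPM with STAT5B and at 30.7, 42.1 and 21.6 CPM with N642H in null cells, where the log2 fold change was -0.21 (SE 0.15, adjusted p = 0.69). The difference was 1.18 (SE 0.21, adjusted p = 0.0496). Stxbp6, a gene of vesicle fusion, showed the other order. It was at 15.4, 19.3 and 2.28 CPM with STAT5B and 12.3, 19.7 and 3.76 CPM with N642H in WT cells. In null cells it was at 2.37, 1.6 and 1.43 CPM with STAT5B and at 10.4, 7.23 and 5.41 CPM with N642H, and the difference was -1.99 (SE 0.28, adjusted p = 0.000991). The potassium channel gene Kcnj8 had log2 fold changes of 0.11 in WT and 1.18 in null cells and a difference of -1.11 (adjusted p = 0.0496). Under 20 alternatives Stxbp6 was called in 18, Il18r1 in 6 and Kcnj8 in 5, and each kept the sign of its difference in all 20.

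Levels with the other vectors of the WT cells were set beside these. The comparisons share the STAT5B or N642H libraries with the main one, so their values are given side by side only. Lta was at 182 CPM in the mean with the empty vector, 225 with Y665H, 363 with STAT5B, 719 with Y665F and 743 with N642H. Irf8 was at 36.9, 53, 76.6, 135 and 175 CPM in that order of vectors, and Plaur at 0.795, 0.917, 1.87, 10.6 and 11.9 CPM. H19 was at 0.409, 1.1, 20.3, 107 and 91.4 CPM, so that Y665F had the highest mean there. Other named genes broke the order as well. Ccl3 was at 10, 14.7, 18, 40 and 36.9 CPM in the same order of vectors. Il18r1 was at 43.9, 37.5, 48.7, 87.6 and 103 CPM, with the lowest mean under Y665H, and Tbx21 at 0.913, 1.21, 1.07, 2.06 and 2.44 CPM, with STAT5B under Y665H. Il9 was at 0.0686 CPM with the empty vector and 0.039 CPM with Y665H.

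Over the 94 genes the median log2 fold change against STAT5B was 1.62 with N642H, 1.29 with Y665F, -1.01 with Y665H and -1.27 with the empty vector. Over all tested genes these medians were -0.01, -0.03, -0.02 and 0.01 in that order. Against STAT5B, Y665F was called higher for 44 genes (0.215%). N642H against Y665F gave 0 called genes of 20509 by edgeR and 0 by DESeq2, with 1472 at an unadjusted p under 0.05. Over the 94 genes the median log2 difference of N642H over Y665F was 0.27. These genes were chosen as higher in the same N642H libraries, so medians over them cannot rank N642H and Y665F. For Il9, which was at 8.6 CPM with N642H and 3.37 CPM with Y665F in the mean, the difference was not called. Stat5b stood at 408 ± 57.6 CPM with Y665F and 482 ± 55.7 CPM with Y665H (SD, n = 3 each).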

How the data were processed

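RNA-seq read counts of 6 libraries, 3 each with STAT5B and STAT5B N642H in WT CD4+ T cells, were compared, with 24 further CD4+ libraries for the shared fit and the null background. Reads were trimmed by the authors, mapped with STAR to mm10 and counted per gene with HTSeq. The deposited values are these raw counts. The submitters' processing notes list FastQC 0.11.9, Trimmomatic 0.36, SAMtools 1.9, Picard 2.9.2 and HTSeq 0.9.1. The strand setting of the counting was not given in the sources used here, so reads of overlapping and antisense genes cannot be told apart. Reads without a gene, 28.4% to 34.7% of a WT library, entered neither library sizes nor tests. Condition was taken from each library's title.

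Counts of the 15 WT libraries were fitted together with edgeR 4.0.16 (R 4.3.3, limma 3.58.1; genes with at least 10 reads in all, TMM factors, glmQLFit, group plus replicate number as a block, glmQLFTest, Benjamini-Hochberg adjustment). Called genes had a log2 fold change beyond 1 in size and an adjusted p under 0.05. CPM are counts scaled by library size and TMM factor, and the SE is the size of the log2 fold change over the square root of F. The null cells were fitted alike, and the interaction over 30 libraries with blocks of their own per background. No pair of WT libraries with the same vector agreed within sampling noise, and other pairs were not checked. Procedures were tested on simulated data.

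The block follows the comparison's definition and was checked by correlating, between libraries sharing a number, their deviations from group means. Over all tested genes it was above 0.1 in 21 of 30 pairs of WT libraries and in 1 of the 3 pairs of STAT5B and N642H. Over genes of at least 1 CPM, a choice made after seeing the data, it was above 0.1 in 30 of 30, with a median of 0.635. The sources do not say what the numbers stand for.

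The genes named are Stat5a, Stat5b and the target genes that the study names, up to 12 called genes per direction with the largest change among those of at least 1 CPM and no overlap between the groups, filled with up to 6 by adjusted p, and the called and highest members of the gene lists, the interaction genes, and genes leading in null cells. Predicted genes were left out. Myh11, Igf2, Cd36, C1s1, C1s2, Socs3, Csf1, Cdkn1a, Egln3, Cd96, Slamf6 and the gene families were named after their values were seen. The members, lists and tests were chosen with earlier results of these data known. The alternatives were no block, RLE factors, library totals, DESeq2 1.42.0, filterByExpr, no filter, the compared groups alone, a RUVr factor, no fold minimum and leaving out each library. Sequences came from GENCODE M21 and from RefSeq tables (GRCm38.p6). Precision is limited by the number of libraries and, under 1 CPM, by counting error.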

Additional observations from a re-analysis of the deposited data

Results flagged for a closer look

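For 3 genes the interaction contrast of edgeR called a difference in the N642H response between WT and Stat5a/b-null CD4+ T cells. Called means an adjusted p under 0.05 and a log2 difference beyond 1. Il18r1 had a log2 difference, WT minus null, of 1.18 (SE 0.21, adjusted p = 0.0496), with N642H above STAT5B in 3 of 3 pairs in WT cells and below it in each pair in null cells. Kcnj8 had a difference of -1.11 (SE 0.21, adjusted p = 0.0496) and Stxbp6 one of -1.99 (SE 0.28, adjusted p = 0.000991).
Over 20 alternative settings the log2 difference ranged from 0.96 to 1.34 for Il18r1, from -1.34 to -0.92 for Kcnj8 and from -2.25 to -1.77 for Stxbp6. In these settings Il18r1 was called in 6, Kcnj8 in 5 and Stxbp6 in 18. None of the genes was called without the block or with the RUVr factor in its place.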

How the results depend on the processing

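The number of genes called between N642H and STAT5B in WT cells, 94 with the replicate block, was 1 with no replicate block, 22 with a RUVr factor in its place, 62 with filterByExpr and 188 with no fold-change minimum. It ranged from 42 to 165 when 1 library was left out, and was 159 when the libraries numbered 3 of every vector were left out, an alternative added after seeing the data. RLE factors (90), library totals (67), DESeq2 (97), no filter (133) and the 6 libraries alone (118) stayed within 1.5 times. All 94 genes kept a positive log2 fold change in each of 14 alternatives that tested them, the fit without the block included. Genes were chosen for their change in the same libraries, so a kept direction is no further support. In null cells, where 66 genes were called, the numbers were 14 without the block, 11 with the RUVr factor, 136 without a filter, 165 with the 6 libraries alone, 176 without a fold minimum and 31 to 79 when 1 library was left out. For N642H against Y665F, with 0 called, they were 8 without a filter, 12 with the 6 libraries alone and 0 to 3 when 1 library was left out. For the difference between backgrounds, with 3 called, they were 0 without the block and with the RUVr factor, 1 each with RLE factors, library totals and filterByExpr, 6 with DESeq2, 10 without a filter, 27 with the 12 libraries alone and 1 to 4 when 1 library was left out. The causes of these changes were not tested. No named gene that passed the test changed direction under an alternative, and Stat5b with N642H was 88.3% of its STAT5B level by library totals. Depth limits genes under 1 CPM, where a library holds fewer than 18.7 to 51.4 reads per gene.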
